A study of Homo sapiens with 6 samples.

Results

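The transcripts described here encode cyclins, cyclin-dependent kinases (CDKs) and CDK inhibitors that act in the G1 phase of the cell cycle. They are the 10 listed genes CCND1, CCND3, CCNE1, CCNE2, CDK2, CDK4, CDK6, CDKN1B, CDKN2C and CDKN2D, found by symbol among the 23354 genes of the deposited count table. RNA was sequenced from LNCaP, an established human prostate cancer cell line that depends on androgens. In the group called DHT+WBM, 3 libraries came from cells given dihydrotestosterone (DHT, a potent natural androgen) at 1 nM together with an extract of white button mushroom (WBM, Agaricus bisporus) at 3 µL/mL. In the group called DHT, 3 libraries came from cells given DHT at 1 nM alone. Both treatments lasted 48 h, and cells of both groups grew in medium with serum. The labels do not say whether the extract was replaced by a vehicle, nor whether the 3 libraries of a group were separate cultures, so the tests weigh differences against a library-to-library spread that could be purely technical. Cells without DHT were not analysed here. The comparison asks how the extract shifts gene expression in cells kept under androgen.

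In G1, D-type cyclins bind CDK4 or CDK6 and begin to phosphorylate the retinoblastoma protein, a brake on the E2F transcription factors. E-type cyclins then activate CDK2, which completes that step and starts DNA replication. Inhibitors of the INK4 family, such as the products of CDKN2C and CDKN2D, bind CDK4 and CDK6, while those of the CIP/KIP family, such as p27 from CDKN1B, act mainly on CDK2 complexes. In androgen-dependent prostate cells, androgen is known to promote passage through G1.

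The libraries held between 19127357 and 21490953 counts, and replicate libraries differed by more than sampling noise. Chi-square over its degrees of freedom was 1.77 to 2.08 between DHT+WBM libraries and higher, 3.92 to 4.51, between DHT libraries. Of the 9 luminal prostate markers, 7 differed between the groups (6 lower and 1 higher in DHT+WBM), and all 9 were expressed. That is 77.8% of the list, where the test described below called 58.2% of all tested genes. KLK3 (prostate-specific antigen) stood at 617 CPM in DHT+WBM and 1683 CPM in DHT, where CPM are counts scaled to a common library total by the trimmed mean of M-values (TMM) method. Summed over each marker list, basal epithelial markers (3 genes) reached at most 0.0975 CPM in DHT+WBM and 0.287 CPM in DHT, and leukocyte markers (3 genes) at most 0.103 CPM in DHT+WBM and 0.0488 CPM in DHT. The 4 fibroblast markers summed to 11.1 to 11.99 CPM in DHT+WBM and 10.00 to 11.5 CPM in DHT, nearly all of it COL1A1, which did not pass the test, and COL1A2 was listed at 0 in all 6 libraries. The 3 endothelial markers summed to 2.16 to 2.29 CPM in DHT+WBM and 2.37 to 3.17 CPM in DHT, nearly all of it VWF, whose libraries did not overlap but which did not pass the test, and CDH5 was listed at 0. KRT5, a basal marker, was also listed at 0 in all 6 libraries.

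Of the 10 G1 genes, 7 were lower in DHT+WBM, 1 was higher and 2 did not pass the test. CCNE2, the gene of cyclin E2, fell furthest, to 23.7 ± 1.13 CPM in DHT+WBM against 57.2 ± 3.57 CPM in DHT (SD, n = 3 each). CDK2, its kinase partner, and the INK4 inhibitor gene CDKN2C followed, each about 1.62-fold lower. CDKN2D, another INK4 inhibitor gene, was the member that rose, by 1.33-fold. CCND1, the gene of cyclin D1, and CDKN1B, the gene of p27, were at nearly the same level in both groups. The test was edgeR's quasi-likelihood F-test on the raw counts with Benjamini-Hochberg adjustment over 13466 tested genes, and a gene was called at an adjusted p under 0.05. By this rule 58.2% of all tested genes were called, 29.0% as lower and 29.2% as higher in DHT+WBM. The median log2 fold change (DHT+WBM over DHT) was -0.18 over the 10 G1 genes and 0.0029 over all tested genes. For 8 of the 10 genes the 3 libraries of one group lay wholly above those of the other, as they did for 62.2% of all tested genes. In bulk RNA, fewer cells in a cycle phase and less transcript per cell cannot be told apart.

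**Figure D1:**
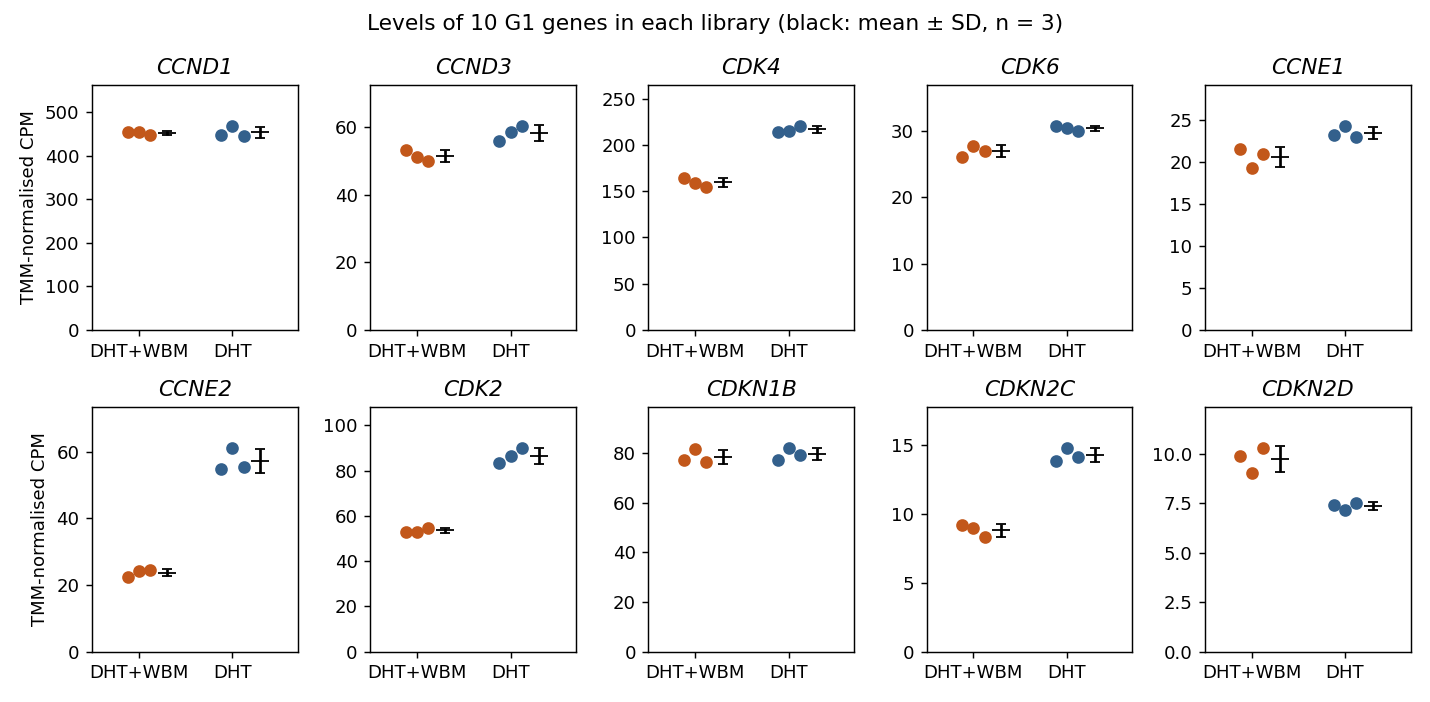
TMM-normalised CPM (vertical axis) of each G1 gene, with DHT+WBM libraries at the left and DHT libraries at the right of each panel, 1 point per library and the mean ± SD in black (n = 3). The DHT+WBM points of CCNE2 and CDK2 lie far below the DHT points, those of CDKN2D lie above, and the points of CCND1 and CDKN1B overlap.

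Of the D-type cyclin genes, CCND1 did not pass the test and CCND3 fell slightly. CCND1 (chromosome 11, 69455873 to 69469242, plus strand, hg19) had 454, 456 and 449 CPM in the DHT+WBM libraries, against 448, 469 and 446 CPM in the DHT libraries. The groups overlapped, and DHT replicate 2 held the highest value. The log2 fold change was -0.0051 ± 0.037 (SE, edgeR adjusted p = 0.917), with a 95% interval of -0.08 to 0.07. The sign turned positive under upper-quartile factors or library totals and without DHT replicate 2.

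CCND3 (chromosome 6, 41902671 to 42016610, minus strand), which encodes cyclin D3, had 53.3, 51.0 and 50.05 CPM in DHT+WBM and 55.9, 58.4 and 60.4 CPM in DHT. Every DHT+WBM library was below every DHT library. The fall was small, at a log2 fold change of -0.18 ± 0.05 (SE; quasi-likelihood test in edgeR, adjusted p = 0.00238).

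CDK4 (chromosome 12, 58141510 to 58146230, minus strand), the main catalytic partner of the D-type cyclins in many epithelial cells, had 164, 159 and 155 CPM in DHT+WBM against 214, 215 and 221 CPM in DHT. The groups were far apart compared with the spread within each. CDK4 was 1.36-fold lower in DHT+WBM, at a log2 fold change of -0.44 ± 0.04 (SE; quasi-likelihood test in edgeR, adjusted p = 2.00e-12). CDK4 overlaps TSPAN31 on the opposite strand over 517 bases, and TSPAN31 rose to 54.7 CPM in DHT+WBM against 33.0 CPM in DHT. If counting ignored strand, reads from the shared stretch could be credited to either gene or to none.

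CDK6 (chromosome 7, 92234235 to 92465941, minus strand), the other D-cyclin kinase, had 26.03, 27.8 and 26.9 CPM in DHT+WBM and 30.8, 30.5 and 30.0 CPM in DHT. The groups did not overlap. The log2 fold change was -0.18 ± 0.06 (SE, edgeR adjusted p = 0.0109). With library totals in place of TMM factors the call was lost, at an edgeR adjusted p of 0.0602, and adjusted p-values over all alternatives ran from 0.00682 to that value.

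The E-type cyclin genes both fell, but by different amounts. CCNE2 (chromosome 8, 95892453 to 95907482, minus strand) had 22.4, 24.1 and 24.5 CPM in DHT+WBM against 54.9, 61.3 and 55.4 CPM in DHT. The highest DHT+WBM library was below the level of every DHT library. CCNE2 was 2.41-fold lower, at a log2 fold change of -1.27 ± 0.06 (SE; quasi-likelihood test in edgeR, adjusted p = 8.66e-21). An overlap of 269 bases links CCNE2 with INTS8 on the opposite strand, which did not pass the test (log2 fold change 0.01).

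CCNE1 (chromosome 19, 30302901 to 30315215, plus strand), which encodes cyclin E1, had 21.5, 19.3 and 20.9 CPM in DHT+WBM and 23.2, 24.3 and 23.0 CPM in DHT. The groups did not overlap, and DHT+WBM replicate 1 lay nearest to the DHT libraries. The log2 fold change was -0.19 ± 0.07 (SE, edgeR adjusted p = 0.0160). The call was lost without DHT+WBM replicate 2 (log2 fold change -0.15, edgeR adjusted p = 0.0910), and also with DESeq2 or library totals. Adjusted p-values over the alternatives ran from 0.00910 to 0.0910.

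CDK2 (chromosome 12, 56360556 to 56366568, plus strand), the kinase that E-type cyclins activate, had 53.0, 53.0 and 54.7 CPM in DHT+WBM against 83.2, 86.3 and 90.2 CPM in DHT. The DHT+WBM libraries were tightly grouped, and all 3 were well below the DHT libraries. CDK2 was 1.62-fold lower, at a log2 fold change of -0.69 ± 0.05 (SE; quasi-likelihood test in edgeR, adjusted p = 1.04e-15).

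Among the inhibitors, CDKN1B (chromosome 12, 12870302 to 12875305, plus strand) had 77.1, 81.5 and 76.2 CPM in DHT+WBM and 77.2, 82.2 and 79.1 CPM in DHT. The groups overlapped. The log2 fold change was -0.023 ± 0.045 (SE, edgeR adjusted p = 0.684), with a 95% interval of -0.11 to 0.07, and its sign turned positive under upper-quartile factors or library totals.

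CDKN2C (chromosome 1, 51433608 to 51440309, plus strand), the gene of p18, had 9.16, 8.94 and 8.29 CPM in DHT+WBM against 13.9, 14.8 and 14.1 CPM in DHT. Every DHT+WBM library was lower. These values rest on 174 to 188 counts per DHT+WBM library and 290 to 294 per DHT library. CDKN2C was 1.62-fold lower, at a log2 fold change of -0.70 ± 0.09 (SE; quasi-likelihood test in edgeR, adjusted p = 6.83e-09).

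CDKN2D (chromosome 19, 10677138 to 10679655, minus strand), the gene of p19 of the INK4 family, had 9.90, 9.04 and 10.3 CPM in DHT+WBM against 7.40, 7.15 and 7.51 CPM in DHT. Here every DHT+WBM library was higher. The log2 fold change was 0.41 ± 0.10 (SE, edgeR adjusted p = 0.000417). Its DHT libraries held only 142 to 155 counts each, and its standard error was the widest of the 10 genes.

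**Figure D2:**
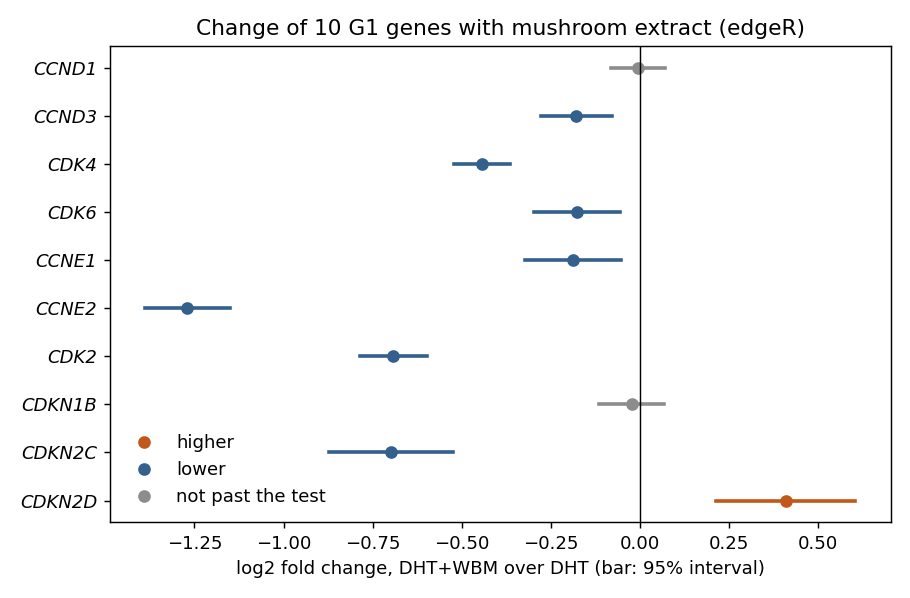
Log2 fold change of each G1 gene (DHT+WBM over DHT, horizontal axis) from edgeR, with 95% intervals as bars and colour for the call at an adjusted p under 0.05. CCNE2 lies furthest to the left at -1.27, CDKN2D is alone to the right at 0.41, and the intervals of CCND1 and CDKN1B span 0.

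Levels were compared between genes as CPM per kilobase of the gene length given in the table. In DHT+WBM the order was CCND1 at 106 ± 0.853, CDK4 at 79.9 ± 2.35, CDKN1B at 32.5 ± 1.18, CDK2 at 23.4 ± 0.426 and CCND3 at 15.5 ± 0.505 CPM per kilobase (SD, n = 3). CCNE1 at 10.5 ± 0.588, CCNE2 at 8.66 ± 0.411, CDKN2D at 6.86 ± 0.458, CDKN2C at 2.72 ± 0.140 and CDK6 at 2.29 ± 0.0746 CPM per kilobase came after them. No neighbours in that order overlapped between libraries. In DHT, CDK4 at 109 ± 1.72 and CCND1 at 106 ± 3.02 CPM per kilobase overlapped, and no other neighbours did. CDK2 at 37.9 ± 1.54 CPM per kilobase stood above CDKN1B at 33.0 ± 1.04 in DHT, and CCNE2 at 20.9 ± 1.31 stood above CCND3 and CCNE1. Both orders were the other way round in DHT+WBM. These orders depend on the listed gene lengths. By mean CPM alone, CDK2 and CDKN1B also changed places, while CCNE2 stayed above CCNE1 and below CCND3 in both groups. In DHT, though, the libraries of CCNE2 (mean 57.2 CPM) and CCND3 (mean 58.2 CPM) overlapped, so their order there is not resolved.

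**Figure D3:**
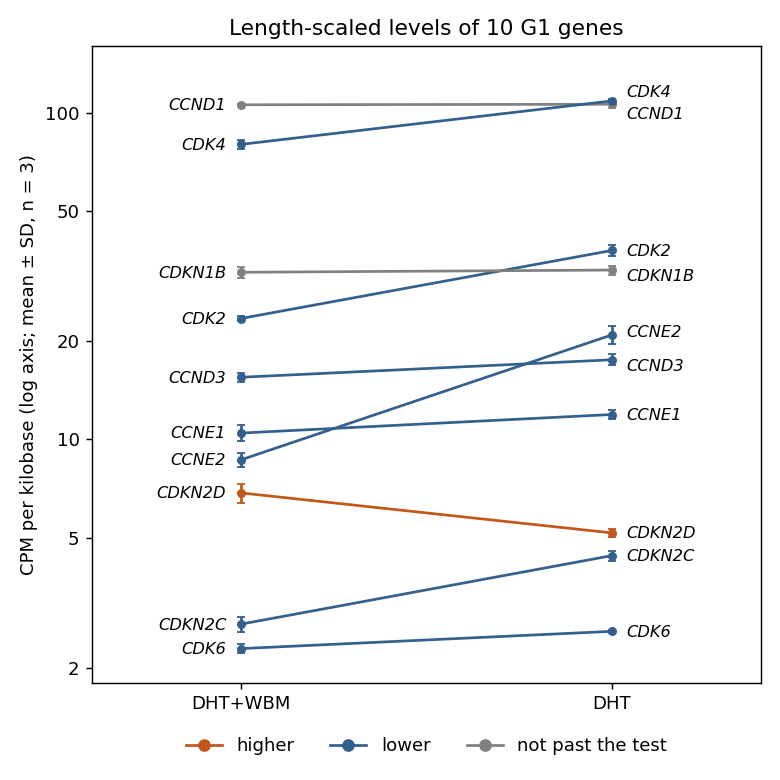
Mean CPM per kilobase ± SD (log axis, n = 3) of each G1 gene in DHT+WBM (left) and DHT (right), with a line joining the means of a gene and colour for the edgeR call. The lines of CDK2 and CDKN1B cross, and so do those of CCNE2 with CCND3 and CCNE1.

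Ratios between 2 members within a library do not depend on scaling factors. All ratios here are per kilobase, so their size depends on the listed gene lengths, while their log2 difference between groups does not. Of 5 pairs compared, all had groups that did not overlap, and an exact two-sided permutation test gave p = 0.1 for each, the smallest that 3 against 3 libraries allow (0.1 after Benjamini-Hochberg adjustment over the pairs). Each pair holds a gene whose own groups did not overlap, so this separation adds no separate support. The share among other gene pairs was not computed. The CCNE1 to CCNE2 ratio per kilobase was 1.21 in DHT+WBM and 0.571 in DHT, so per kilobase CCNE1 was the higher in DHT+WBM and CCNE2 in DHT. By CPM, CCNE2 was the higher in both groups (23.7 against 20.6 CPM in DHT+WBM, 57.2 against 23.5 CPM in DHT). The share of CCNE2 in the summed E-type cyclin level was 42.8, 47.4 and 45.7% in DHT+WBM libraries, against 63.0, 64.5 and 63.4% in DHT libraries. The CDK2 to CDKN1B ratio was 0.722 in DHT+WBM and 1.15 in DHT. The INK4 pair had a CDKN2C to CDKN2D ratio of 0.397 in DHT+WBM and 0.852 in DHT, a difference of -1.10 on the log2 scale beside 1.08 for the E-type pair. Per kilobase, CDK4 exceeded CDK6 by 34.9-fold in DHT+WBM and 42.0-fold in DHT, and CCND1 exceeded CCND3 by 6.82-fold in DHT+WBM and 6.05-fold in DHT.

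The 2 E-type cyclin genes together had 19.1 ± 0.491 CPM per kilobase in DHT+WBM and 32.8 ± 1.67 in DHT. CDK4 and CDK6 together had 82.2 ± 2.31 CPM per kilobase in DHT+WBM and 111 ± 1.69 in DHT. The D-type cyclin genes, with CCND2 included, had 122 ± 1.22 CPM per kilobase in DHT+WBM and 124 ± 3.15 in DHT, and their libraries overlapped (exact permutation p = 0.4). The CIP/KIP inhibitor genes CDKN1A, CDKN1B and CDKN1C together had 139 ± 0.880 CPM per kilobase in DHT+WBM and 78.9 ± 1.53 in DHT. CDKN1B made up 23.3 ± 0.755% of that sum in DHT+WBM and 41.8 ± 1.72% in DHT. CDKN1A, the gene of p21, made up 74.1 ± 0.668% in DHT+WBM and 55.5 ± 1.39% in DHT. For each of the sums other than the D-type cyclins the exact permutation p was 0.1 (0.133 after adjustment over 4 sums), the smallest possible here. Each gene of the E-type sum and of the CDK4 and CDK6 sum was already lower without overlap. In the CIP/KIP sum, CDKN1A and CDKN1C were already higher without overlap. The separation of these sums therefore adds no separate support.

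Of the other cyclin, CDK and inhibitor genes, 15 of 35 tested fell, 8 rose and 12 missed the threshold, and the list's median was -0.10 on the log2 scale. The called share, 65.7%, was not far from the 58.2% of all tested genes. Of the 4 genes with the smallest adjusted p, 3 encode cyclins of S phase or mitosis and fell. CCNA2, a later partner of CDK2, was at 24.1 ± 1.11 CPM in DHT+WBM and 65.5 ± 2.80 CPM in DHT, and the mitotic cyclin genes CCNB1 and CCNB2 had log2 fold changes of -1.10 and -1.24. CDKN1A had 256 ± 1.87 CPM in DHT+WBM and 109 ± 4.41 CPM in DHT, which is 1.24 ± 0.04 as a log2 fold change (SE, edgeR adjusted p = 1.47e-25). CCNG2, an unconventional cyclin gene, rose by 0.39 on the log2 scale. Among genes named after their values were seen, CCND2, the remaining D-type cyclin gene, had 54, 96 and 78 counts in DHT+WBM and 18, 29 and 31 counts in DHT. It rose by 1.53 on the log2 scale and still made up only 0.468 ± 0.144% of the D-type cyclin level in DHT+WBM, against 0.158 ± 0.0432% in DHT. CDKN1C, the gene of p57, rose by 0.82 on the log2 scale.

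In the list for CDK activation and chaperoning, 9 of 11 genes were lower and 1 higher, and the list's median was -0.20 on the log2 scale. Called genes made up 90.9% of the list, against 58.2% of all tested genes. That gap depended on the scaling. Upper-quartile factors gave 7 lower and 1 higher, and library totals gave 6 lower and 1 higher. Over all tested genes, 7875 were called with library totals and 7837 in the main fit. CDC25A, the phosphatase that removes inhibitory phosphates from CDK2, was at 24.9 ± 1.12 CPM in DHT+WBM and 47.7 ± 1.72 CPM in DHT. WEE1 and PKMYT1, kinases that place such phosphates on CDKs, also fell, with log2 fold changes of -0.98 and -1.29. HSP90AB1, which encodes a chaperone that helps fold CDK4, fell with a log2 fold change of -0.45. In the CDK-activating kinase, MNAT1, its assembly factor, rose by 0.16 on the log2 scale (edgeR adjusted p = 0.0193), a call lost with DESeq2 and without DHT+WBM replicate 3 or DHT replicate 2. The kinase gene CDK7 itself did not pass the test, with a log2 fold change of 0.07.

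Among genes for the turnover of G1 regulators, 9 of 18 were lower and 2 higher, and the list's median was -0.09 on the log2 scale. At 61.1%, the share called was close to the 58.2% of all tested genes. The split was 7 lower and 4 higher under upper-quartile factors or library totals. SKP2 and CKS1B, which together recruit p27 for degradation, fell, while CDKN1B transcripts did not pass the test. SKP2 was at 41.1 ± 0.902 CPM in DHT+WBM and 78.8 ± 5.11 CPM in DHT, and CKS1B at 3.29 ± 0.0702 CPM in DHT+WBM and 7.11 ± 0.554 CPM in DHT. FBXO4, a ubiquitin ligase subunit linked to cyclin D1, fell with a log2 fold change of -0.48, and PIM1, a kinase that can phosphorylate p27, with -0.80. SKP1 and CUL3, a ligase adaptor and a scaffold, rose with log2 fold changes of 0.16 and 0.12. FBXW7 and AMBRA1, receptors for cyclin E and D-type cyclins, had log2 fold changes of -0.05 and 0.03 that missed the threshold.

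Downstream of the G1 kinases, 13 of 17 pocket protein, E2F and MuvB genes were lower and 1 was higher (12 and 3 with library totals), and the list's median was -0.38 on the log2 scale. Their called share was 82.4%, against 58.2% of all tested genes. The atypical repressors E2F8 and E2F7 had log2 fold changes of -1.35 and -0.77, the activator E2F2 had -1.01, and RBL1, which encodes p107, had -0.61. LIN37, a MuvB subunit gene, rose with 0.58, but 4473 bases of its span overlap PSENEN on the same strand, so its reads are uncertain. All 20 genes of the G1/S target and proliferation list were lower, where 29.0% of all tested genes were. The list's median was -1.04 on the log2 scale, with a range from -1.47 to -0.52. Its smallest adjusted p-values belonged to the helicase genes MCM2 and MCM4, the loader CDC6 and the ribonucleotide reductase gene RRM2, with log2 fold changes of -1.18, -1.09, -1.27 and -1.08. CCNE2, at -1.27, lay within the range of that list, while CCNE1, at -0.19, lay outside it.

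Genes that feed into G1 were mixed, with 10 of 22 higher and 5 lower, and the list's median was 0.14 on the log2 scale. Here 68.2% were called, not far from the 58.2% of all tested genes. JUN, an AP-1 factor that can activate CCND1, rose by 0.72 on the log2 scale, and FOXO1, an activator of CDKN1B, by 0.57. KLF6, a zinc finger factor gene, fell with a log2 fold change of -0.49. MYC, named after its values were seen, was at 178 ± 4.17 CPM in DHT+WBM and 214 ± 10.6 CPM in DHT, which is -0.27 ± 0.04 as a log2 fold change (SE, edgeR adjusted p = 5.46e-07).

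**Figure D4:**
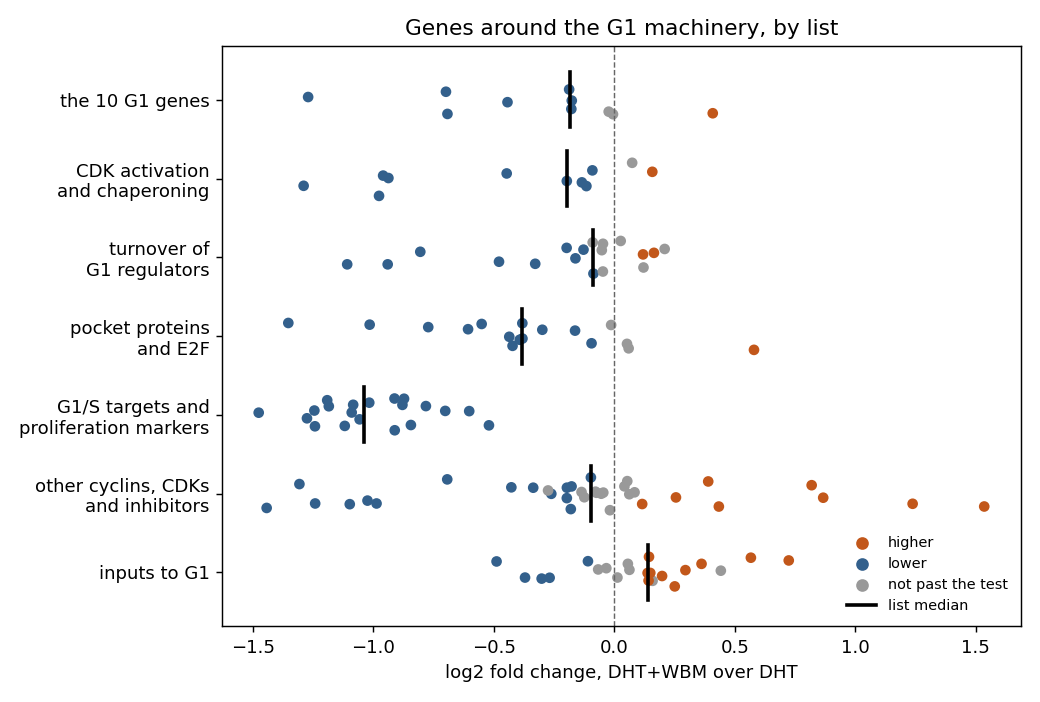
Log2 fold changes (DHT+WBM over DHT, horizontal axis) of tested genes, 1 point per gene, in the G1 set and 6 lists around it, with black bars for list medians and colour for the edgeR call. The G1/S targets lie wholly left of 0 with a median of -1.04, while the 10 G1 genes centre at -0.18 and the inputs to G1 at 0.14.

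Promoter windows were taken from RefSeq (GRCh38.p14), each from 250 bases before to 50 bases after an annotated start, and 7 of the 10 genes matched, with 12 windows. CCND1, CCNE2 and CDK2 did not match and were not searched. The windows of CDK4, CDKN2C and CDKN2D are shown as examples picked after the search, since the data have the first pair of genes falling and the last one rising, and since their E-boxes differ. They do not stand for the other windows: CCND3 (3 windows) and CCNE1 also fell, and their windows held no E-box. Capitals mark the E-box CACGTG, the site bound by MYC with MAX, and the CCAAT box CCAAT, read on both strands. The CDK4 window is chr12:57752261-57752560 (minus strand), that of CDKN2C is chr1:50969995-50970294 (plus strand, 1 of 3 windows of this gene), and that of CDKN2D is chr19:10568930-10569229 (minus strand).
CDK4: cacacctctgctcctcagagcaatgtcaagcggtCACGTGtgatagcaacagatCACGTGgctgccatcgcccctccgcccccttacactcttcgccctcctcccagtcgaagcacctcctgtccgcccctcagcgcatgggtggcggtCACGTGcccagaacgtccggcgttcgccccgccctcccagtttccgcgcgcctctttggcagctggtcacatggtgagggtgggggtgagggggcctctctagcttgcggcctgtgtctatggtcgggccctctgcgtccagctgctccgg
CDKN2C: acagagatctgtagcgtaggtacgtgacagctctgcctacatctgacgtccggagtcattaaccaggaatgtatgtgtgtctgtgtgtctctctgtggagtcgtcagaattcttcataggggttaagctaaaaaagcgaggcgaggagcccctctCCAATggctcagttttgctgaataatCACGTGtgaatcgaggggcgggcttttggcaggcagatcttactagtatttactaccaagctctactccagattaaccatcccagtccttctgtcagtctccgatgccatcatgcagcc
CDKN2D: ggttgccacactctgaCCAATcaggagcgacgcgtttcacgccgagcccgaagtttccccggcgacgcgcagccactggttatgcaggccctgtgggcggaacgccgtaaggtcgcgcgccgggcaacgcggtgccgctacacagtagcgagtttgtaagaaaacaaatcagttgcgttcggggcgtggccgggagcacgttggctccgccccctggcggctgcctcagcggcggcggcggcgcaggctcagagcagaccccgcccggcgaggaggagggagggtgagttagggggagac
The CDK4 window held 3 E-boxes, which begin 216, 196 and 101 bases before the start. At least 1 E-box was found in 7.26% of all 35116 RefSeq windows, and 3 or more in 0.0940%. Of the 12 windows, 4 held an E-box (1 of CDK4, 1 of CDK6 and 2 of CDKN2C) and 5 held a CCAAT box (2 of CCND3 and 1 each of CDKN1B, CDKN2C and CDKN2D). The CDKN2C window shown held 1 E-box, 69 bases before the start, and a CCAAT box 95 bases before it, while the CDKN2D window held a CCAAT box 234 bases before the start and no E-box. A CCAAT box was found in 34.6% of all windows. None of the 12 windows held the E2F motif, searched as TTTGGCGC, TTTGCCGC, TTTCGCGC and TTTCCCGC on both strands, which 3.3% of all windows held. Searches for the GC box (GGGCGG), the CHR element (TTTGAA or TTCGAA), a FOXO motif (TGTTTAC) and an AP-1 motif (TGAGTCA or TGACTCA) found 9, 0, 1 and 0 of the 12 windows, against 45.0, 16.4, 3.4 and 4.9% of all windows. All windows include those of untested genes. Counted by gene, 7 of 7 members held a GC box, 4 a CCAAT box, 3 an E-box and 0 the E2F motif. Among 10304 tested genes with a window, these shares were 76.6, 43.4, 12.8 and 6.6%. These matches describe letters in the windows and do not show binding.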

How the data were processed

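The file holds raw, unnormalized read counts for every gene in 6 libraries, deposited with gene positions and lengths. The submitters' processing notes name the build hg19 and, in no stated role, edgeR 3.28.1, HTSeq 0.6.0, STAR 2.6.0 and bcl2fastq 2.18.0.12. The annotation used and the strand setting are not stated in those notes, so reads of overlapping genes cannot be assigned by strand. This touches CCNA2 and PKMYT1, which overlap opposite-strand genes, and CKS1B and HSP90AB1 have near-identical processed copies that can take their reads. Libraries were grouped by title, and columns were matched by the code in each title.

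edgeR 4.0.16 under R 4.3.3 was used for all main tests. Its filterByExpr step (minimum count 10 in at least 3 libraries, minimum total 15) set the tested genes, TMM factors of 0.979 to 1.02 scaled the libraries, and the two-sided quasi-likelihood F-test compared the groups. Adjusted p-values in the text come from this fit unless another tool is named. SE is the log2 fold change divided by the root of F. The common coefficient of variation beyond counting noise was 3.39%, so small changes pass. On simulated counts for DHT+WBM against DHT over 13375 genes, the fit called 62% of genes changed by 0.25 on the log2 scale, 84% at 0.5, 100% at 1 and 0.0683% of unchanged genes. The simulation gave every gene the same spread in both groups and changed 50 genes at each size. In the data 58.2% of tested genes were called and spread differed between groups, so these rates need not hold there.

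Named genes were the 10 G1 genes plus, from each of 6 pathway lists, up to 4 genes with the smallest adjusted p and up to 2 called against the majority of the list. Other genes were chosen after their values were seen. The members and lists were chosen with earlier results of these data known. Some genes of these lists are not reported here by name. Alternatives were RLE, upper-quartile and no factors, no filter, a 1 CPM filter, DESeq2 1.42.0, limma-voom (limma 3.58.1), a replicate block, a minimum 1.5-fold change and each library left out. Pair ratios were also taken from log2(CPM + 1).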

Additional observations from a re-analysis of the deposited data

How the results depend on the processing

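CCNE2, CCND3, CDK2, CDK4, CDKN2C and CDKN2D kept their direction and their call under every alternative scaling, filter, tool and design and with each library left out, with log2 fold changes of CCNE2 from -1.30 to -1.22. CCNE1 lost its call with library totals (log2 fold change -0.14), with DESeq2 (-0.19) and without DHT+WBM replicate 2, and its values with each library left out ran from -0.23 to -0.15. CDK6 lost its call with library totals (-0.13). For CCND1 the log2 fold change was 0.027 with upper-quartile factors, 0.042 with library totals and -0.019 to 0.017 with each library left out. For CDKN1B it was 0.0091 with upper-quartile factors and 0.024 with library totals. These 2 scalings raised the median log2 fold change of all genes to 0.035 and 0.049, from 0.0029. The number of G1 genes called was 6 with library totals and 7 with DESeq2. With a minimum 1.5-fold change, 3 G1 genes were called (CCNE2, CDK2 and CDKN2C), 3 lower and 0 higher, so that CCND3, CCNE1, CDK4, CDK6 and CDKN2D lost their call, and 1958 of all genes (14.5%), 1088 higher and 870 lower. The 6 surrounding lists were not tested with a minimum fold change. Under the other alternatives the total called in each stayed within 1.5 times its value, but counts in each direction moved. With library totals, lower genes went from 9 to 6 for CDK activation and chaperoning. They went from 15 to 12 for the other cyclins, CDKs and inhibitors, while all 20 G1/S targets stayed lower. Counts of higher genes were small, and some moved more in proportion. For turnover genes 2 became 4 with upper-quartile factors, library totals or the replicate block. For pocket protein and E2F genes 1 became 3 with library totals and 2 without DHT replicate 2, and for CDK activation and chaperoning 1 became 0 with DESeq2 and without DHT+WBM replicate 3 or DHT replicate 2. The 5 pair ratios moved by less than the spread between libraries.

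The replicate numbers were not taken to pair libraries, since the labels do not say that they mark a shared culture or day. As a check, deviations of same-numbered libraries were correlated, at 0.04, 0.11 and 0.02. With the replicate block 8109 genes were called, against 7837 without it, and 8 G1 genes in both fits. Not every library correlated best with its own number. With 3 libraries a group, exact tests cannot give a p under 0.1, and CDKN2C and CDKN2D rest on at most 294 counts per library.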
